A study of Mus musculus with 14 samples.

Results

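Axon guidance genes were examined in RNA-seq libraries of mammary epithelial cells from 7 wild type (WT) and 7 Usp22-overexpressing (OE/OE) mice. The genes were chosen by symbol: every protein-coding gene named as a semaphorin, plexin, neuropilin, ephrin, Eph receptor, slit, robo, netrin, UNC5, neogenin or DCC. The set was picked because Sema4f, which encodes a transmembrane class 4 semaphorin, stood out in the same contrast of OE/OE and WT cells, so the values of Sema4f are given as a description with no test. The table of 16124 genes held 62 such genes of 70 in the annotation. They comprised 20 semaphorins, 11 plexins and neuropilins, 8 ephrins, 11 Eph receptors, 5 slits and robos, and 7 netrins and netrin receptors. Dcc, Epha6, Epha8, Epha10, Ntn5, Robo3, Slit1 and Unc5d were not in the table and were not analysed here.

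All mice were nulliparous females aged 3.5 months, and each OE/OE mouse was matched with a WT littermate, giving pairs 1, 3, 4, 5, 6, 7 and 8. OE/OE mice carried, on both copies of the ROSA26 locus, a FLAG- and MYC-tagged Usp22 cDNA under the ubiquitous CAGGS promoter, whose loxP-flanked STOP cassette had been removed by Zp3-Cre, which acts in the oocyte. The transgene was therefore on in every tissue and not in the epithelium alone, and WT mice lacked it. Epithelial cells were the organoid pellet of collagenase-digested glands 2, 3 and 4 of each mouse, separated from stroma by brief centrifugation and not by sorting. Usp22, a deubiquitinase of the SAGA complex, had 3500 to 5380 normalized counts in the WT libraries and 74948 to 144288 in the OE/OE libraries. The genes of the table held 20125106 to 41835978 fragments per library, and a normalized count is a fragment count divided by the size factor of its library.

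Guidance molecules were named for steering axons, and the same ligand and receptor families act in epithelia and vessels. Class 3 semaphorins are secreted and mostly signal through neuropilins and plexins, while classes 4 to 7 are held in the membrane and mostly bind plexins directly. Ephrins are membrane-bound ligands of the Eph receptor tyrosine kinases and signal in both directions at cell contacts. Slits are secreted ligands of robo receptors, and netrins bind DCC, neogenin and UNC5 receptors. In the mammary gland, netrin 1 with neogenin and slits with ROBO1 are known for holding the cell layers of the duct together, and EphA2 for a part in branching.

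The start regions of Sema4f and Sema3e are shown because these were the members that differed in the same direction in all 7 pairs. Each is 300 bases of RefSeq (GRCm38.p6) on the strand of the gene, from 250 before to 50 after the start of transcription, with GC boxes (GGGCGG), E-boxes (CACGTG) and CCAAT boxes (CCAAT) in capitals, on either strand. The Sema4f region lies at chr6:82939720-82940019 on the minus strand, and the Sema3e region at chr5:14025026-14025325 on the plus strand.
Sema4f: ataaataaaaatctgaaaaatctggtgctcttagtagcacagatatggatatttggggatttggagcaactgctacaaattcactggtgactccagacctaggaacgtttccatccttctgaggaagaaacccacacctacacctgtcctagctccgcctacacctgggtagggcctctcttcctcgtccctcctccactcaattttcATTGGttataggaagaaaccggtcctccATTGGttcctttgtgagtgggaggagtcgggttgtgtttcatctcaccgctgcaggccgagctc
Sema3e: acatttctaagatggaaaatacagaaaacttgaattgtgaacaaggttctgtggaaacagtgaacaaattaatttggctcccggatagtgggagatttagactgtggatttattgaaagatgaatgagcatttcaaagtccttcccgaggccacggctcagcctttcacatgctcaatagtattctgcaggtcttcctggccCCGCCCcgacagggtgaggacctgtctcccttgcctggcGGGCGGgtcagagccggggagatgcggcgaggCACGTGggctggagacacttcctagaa
Sema4f had 2 CCAAT boxes, both read on the opposite strand, starting 42 and 14 bases before the start site, and no match to the other motifs searched, TATAAA included. Sema3e had 2 GC boxes and 1 E-box. Across 32851 mouse promoters of the same length, 37.4% held CCAAT, 35.7% GGGCGG, 7.15% CACGTG and 13.6% TATAAA. RefSeq gave 71 promoters for 55 of the members, with a median of 20 CpG dinucleotides and 64.3% GC, against 7 and 52.7% over all promoters. The Sema4f region had 7 CpG dinucleotides and 48.7% GC, and the Sema3e region 11 and 50.7%, so both were below the median of the members.

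The OE/OE library of pair 4 stood apart, across the whole table as well as in these families. It held the lowest value of all 14 libraries for 32 of the 62 members (51.6%), while this was so for 25.3% of all genes, and it held the highest for 5 members and 27.0% of all genes. The members lowest there included 11 of 20 semaphorins and 8 of 11 plexins and neuropilins, but 1 of 8 ephrins. In the same mouse, relative to its WT littermate, the mean log2 level of 13 endothelial markers differed by -1.76 and that of 8 pericyte markers by -1.55. The level of 10 adipocyte markers differed by -2.16, of 9 Schwann cell and neuronal markers by -1.11 and of 11 fibroblast markers by -0.97. For 10 macrophage markers the difference was -0.55, and for 9 lymphocyte markers -0.07. It was 0.22 for 10 pan-epithelial markers, 0.03 for basal, -0.12 for luminal hormone-sensing and -0.13 for luminal progenitor markers. In bulk RNA, fewer cells of a type and less RNA per cell cannot be told apart. In pair 1 the endothelial markers differed by 0.93, the pericyte markers by 0.77, and the Schwann cell and neuronal markers by 0.73. Adipocyte and fibroblast markers there differed by 0.66 and 0.62, and macrophage and lymphocyte markers by -0.50 and -2.10. Fits without pair 4 keep pair 1, so they are not free of such differences. For some of the members named below, the fold change is given with and without pair 4. These are not all the members whose fold change the pair turned or moved.

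Guidance genes spanned a wide range of levels in these cells. Per kb of exon and over all 14 mice, Epha2, the receptor of ephrin-A1, was highest, with 3912 ± 853 (SD) normalized counts per kb, above 97.8% of the genes in the table. Its ligand Efna1 followed with 1981 ± 561, then Plxnb2, a class B plexin, with 1464 ± 312, Sema4c, a ligand of plexin-B2, with 1420 ± 297, and Ntn1, which encodes netrin 1, with 1191 ± 223. The ranges over the mice of each gene in this order overlapped that of the next. At the other end, the receptor Epha5 had 1.91 ± 0.53 and the netrin receptor Unc5c 2.37 ± 1.20 normalized counts per kb. The highest and lowest members of the other classes were Slit3 (517 ± 231) and Robo2 (10.4 ± 6.01), Efna3 (31.1 ± 11.0, lowest ephrin), Plxnc1 (11.5 ± 4.00, lowest plexin) and Sema3a (4.31 ± 1.85, lowest semaphorin). For 5 members, Efna3, Efna4, Epha1, Plxna1 and Sema4c, between 6.01% and 14.1% of the exon bases were shared with another gene, and no source used here says that counting used strand, so their counts may include reads of the neighbour.

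**Figure D1:**
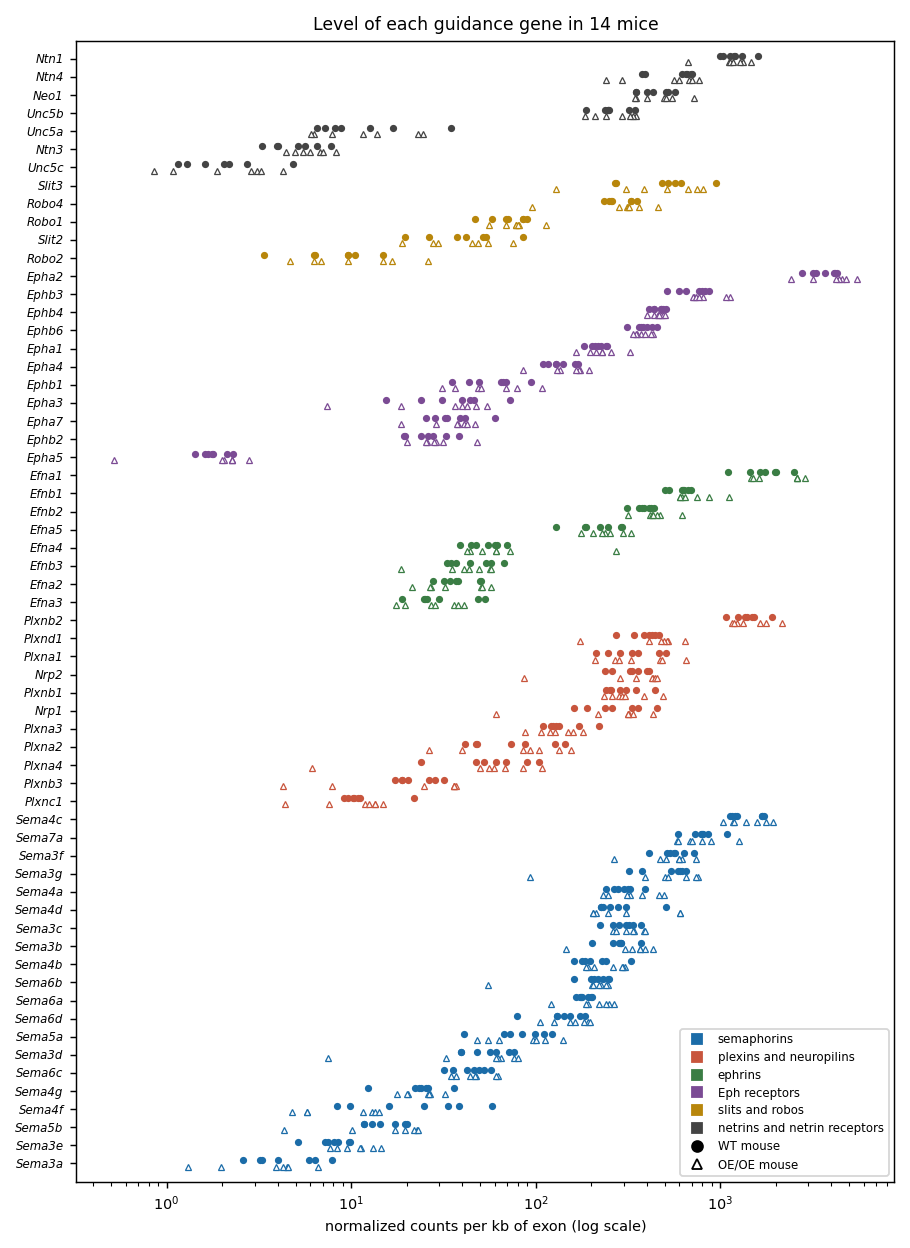
Normalized counts per kb of exon (log scale) for each of the 62 guidance genes in 7 WT mice (circles) and 7 OE/OE mice (triangles), grouped by class. Levels ran from Epha5, at 1.91 per kb on average, to Epha2, at 3912, and in many genes 1 triangle, the OE/OE mouse of pair 4, lies to the left of the others.

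Sema4f had the greatest log2 fold change of the guidance genes. The gene (ENSMUSG00000000627.15) lies on the minus strand at chr6:82911885-82939769 of GRCm38 and shares no exon base with another gene. In pairs 1, 3, 4, 5, 6, 7 and 8, WT mice had 85.2, 178, 44.2, 308, 52.0, 204 and 132 normalized counts. Their OE/OE littermates had 25.4, 61.2, 30.7, 69.0, 30.6, 71.7 and 75.1. Every OE/OE mouse lay below its own littermate, while the groups overlapped, since the WT mice of pairs 4 and 6 lay within the range of the OE/OE mice. The means were 143 ± 94.5 and 52.0 ± 22.0 (SD, n = 7), and the log2 fold change, OE/OE minus WT, was -1.28 with a standard error of 0.21. Per kb of exon this was 27.1 ± 17.9 in WT and 9.83 ± 4.17 in OE/OE mice, so Sema4f ranked 53rd of the 62 members by level. The counts behind these values were low, from 24 to 396 fragments per library.

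The size of the Sema4f difference varied between litters. Its log2 ratio was -1.71, -1.53, -0.51, -2.14, -0.74, -1.50 and -0.80 in pairs 1, 3, 4, 5, 6, 7 and 8. The ratios were nearest to 0 in pairs 4 and 6, whose WT mice had the lowest Sema4f of their group, and farthest in pair 5, whose WT mouse had the highest. Since the WT value is part of the ratio, a low or high WT value moves the ratio in this direction by itself. Sema4f was the lowest of the 62 members in each pair but pair 4, where 22 others lay below it. Among all genes of the table, 0.385% to 4.10% had a lower ratio in those 6 pairs and 23.4% in pair 4. A pattern of this kind, lower in all 7 pairs, was shown by 0.62% of all genes. Litter, taken as the pair, accounted for 54.3% of the spread of Sema4f over the 14 mice and genotype for 38.5%. Without pair 4 its log2 fold change was -1.40 (SE 0.20), and it ranged from -1.40 to -1.13 over the fits that left out 1 pair each.

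**Figure D2:**
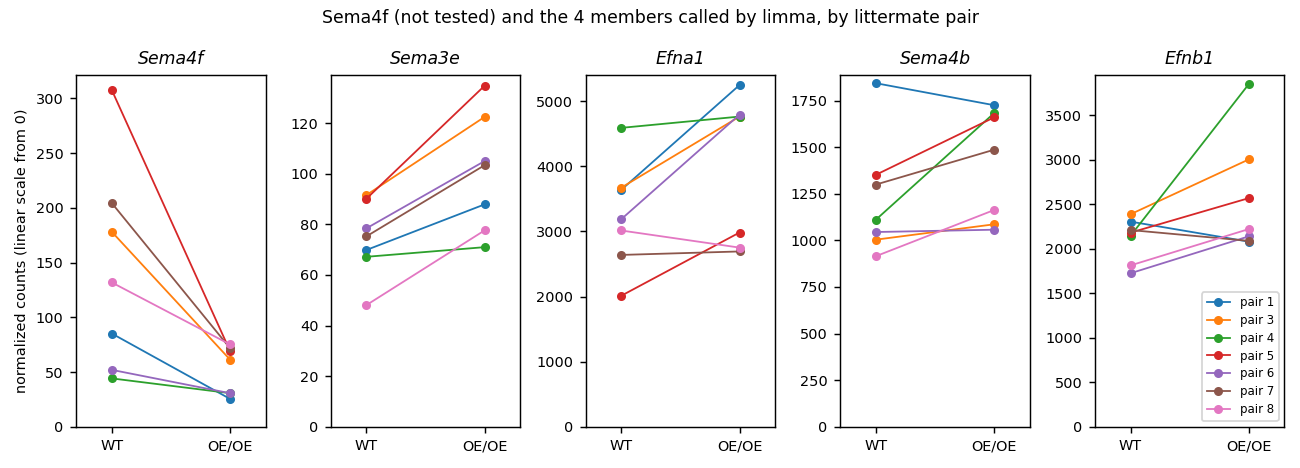
Normalized counts (linear axes from 0) of Sema4f, which was not tested, and of the 4 members called by limma, in WT and OE/OE mice, with each line joining 1 littermate pair. All 7 lines descend for Sema4f and all 7 ascend for Sema3e, while 6 ascend for Efna1 and Sema4b and 5 for Efnb1.

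The other 61 members gave few and small differences. By limma with the pair as a block, 4 were higher in OE/OE mice at an unadjusted p of 0.05 or less (6.56% of the 61), namely Sema3e, Efna1, Sema4b and Efnb1, and 0 were lower. Of all genes, 1.95% were called higher and 1.85% lower, and 0.0124% had an adjusted p under 0.05. None of the 61 had an adjusted p under 0.05 by limma, edgeR or DESeq2, although 4, 4 and 5 of them had an unadjusted p of 0.05 or less by these tools. Their log2 fold changes ran from -0.34 to 0.42, 36 above 0 and 25 below, with a median of 0.03, where the median of all genes was near 0 (-0.0015). No member had groups that did not overlap, as 0.0434% of all genes did.

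**Figure D3:**
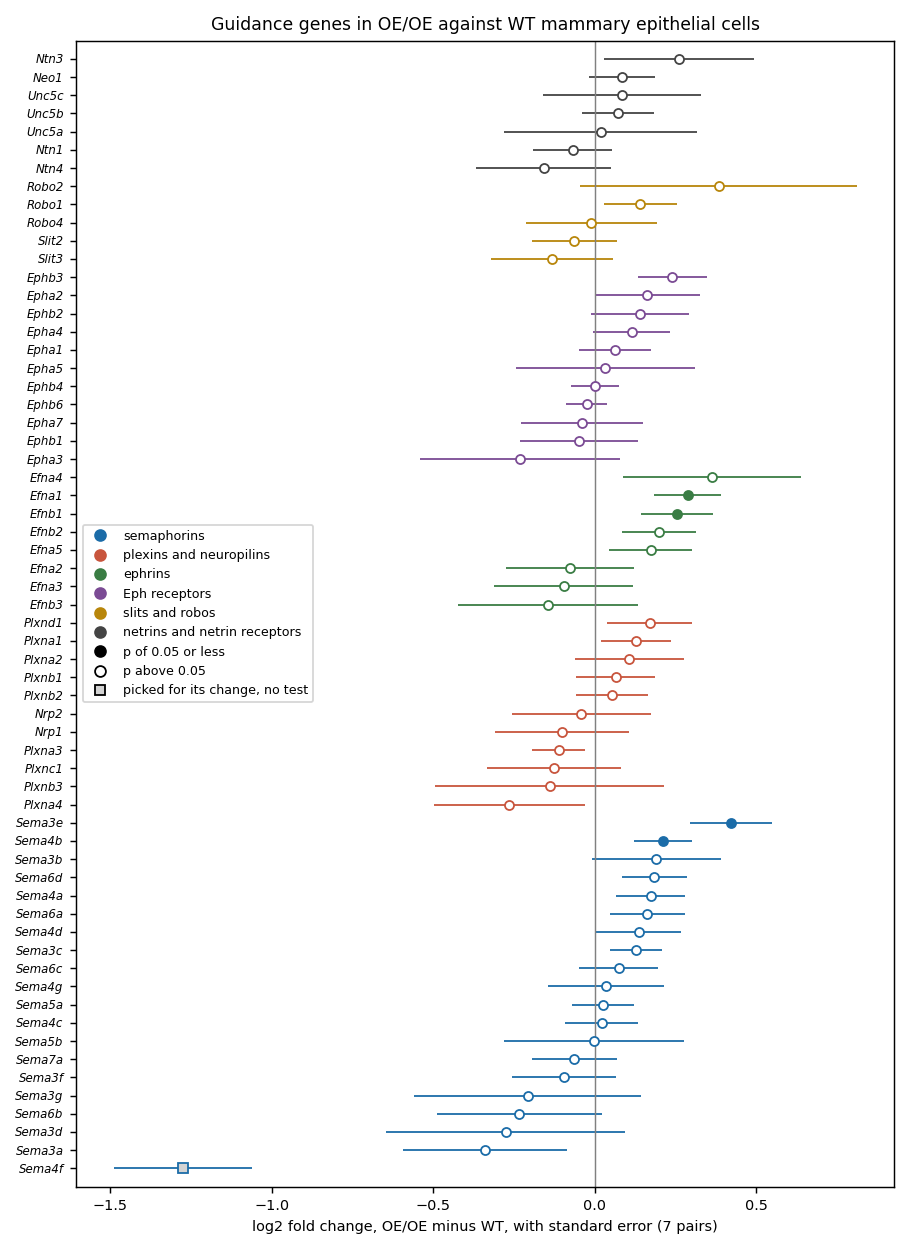
Log2 fold change, OE/OE minus WT, with its standard error over 7 pairs, for the 62 guidance genes by class. Sema4f (square, not tested) lies at -1.28, and the other 61 genes lie between -0.34 and 0.42, 4 of them filled for an unadjusted limma p of 0.05 or less.

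Among the semaphorins, Sema3e was higher in every OE/OE mouse than in its littermate. It encodes a secreted ligand that binds plexin-D1 without a neuropilin (ENSMUSG00000063531.7, chr5:14025276-14256689, plus strand). WT mice had 69.9, 91.6, 67.2, 90.1, 78.4, 75.2 and 48.1 normalized counts in pairs 1, 3, 4, 5, 6, 7 and 8, and OE/OE mice 87.9, 122, 71.0, 135, 105, 103 and 77.7. The groups overlapped, and the difference was smallest in pair 4. The means were 74.3 ± 14.9 and 100.3 ± 23.3 (SD, n = 7), and the log2 fold change was 0.42 (SE 0.13, limma p = 0.00864, adjusted p = 1.00, exact sign-flip p = 0.0156). The sign-flip test compares the mean pair ratio with its values under all sign changes of the 7 ratios, and 0.0156 is the smallest two-sided p it can give. Of all genes, 0.887% were higher in all 7 pairs. Sema3e rested on 31 to 130 fragments per library. Of the members other than Sema4f, it was the one whose call held in all 22 alternative fits.

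Sema4b, another transmembrane class 4 semaphorin, had 915 to 1843 normalized counts in WT mice (median 1111) and 1057 to 1725 in OE/OE mice (median 1487), with overlapping groups. It was higher in 6 of 7 pairs, with a log2 fold change of 0.21 (SE 0.09, limma p = 0.0420, adjusted p = 1.00, exact sign-flip p = 0.0469), and 0.15 without pair 4 (SE 0.08, limma p = 0.0888). The call was also lost without pair 3 (0.23), 5 (0.20), 7 (0.21) or 8 (0.19). Sema4c differed by 0.02 (95% interval -0.23 to 0.27). Sema3a, a secreted ligand that needs neuropilin 1, differed by -0.34 (-0.91 to 0.23), was lower in 5 of 7 pairs, and differed by -0.14 without pair 4. Without Sema4f, 2 of 19 semaphorins were called higher and 0 lower, where 1.95% and 1.85% of all genes were.

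None of the 11 plexins and neuropilins passed the limma threshold over all 7 pairs without a covariate. Of all genes, 3.81% passed in either direction, so 0 calls among 11 is no result about the class. Plxnd1, the receptor of Sema3e, had 1981 to 3395 normalized counts in WT mice (median 2997) and 1277 to 4698 in OE/OE mice (median 3599), and the lowest OE/OE value was that of pair 4. Its log2 fold change was 0.17 (SE 0.13, limma p = 0.233, exact sign-flip p = 0.312), and 0.30 without pair 4 (SE 0.08, limma p = 0.00540, exact p = 0.0625 over 6 pairs). The neuropilins followed the same mouse. Nrp1 had 596 normalized counts in the OE/OE mouse of pair 4 and 2123 to 4241 in the other OE/OE mice, and Nrp2 had 1023 there and 3400 to 5414 elsewhere. Their log2 fold changes were -0.10 (SE 0.21) and -0.04 (SE 0.21) over 7 pairs, and 0.11 (SE 0.12) and 0.19 (SE 0.11) without pair 4. Both fits keep pair 1, where the log2 ratios of Nrp1 and Nrp2 were 0.75 and 0.73. Plxna4, a class A plexin, had 86.3 normalized counts in the OE/OE mouse of pair 4 against 709 to 1527 in the other OE/OE mice. Its log2 fold change moved from -0.26 (SE 0.23) to 0.02 (SE 0.06) without pair 4. Plxnb1, a receptor of class 4 semaphorins, and Plxnb2 differed by 0.06 (95% interval -0.21 to 0.34) and 0.05 (-0.20 to 0.30), and Plxnb1 by -0.03 without pair 4. With adipocyte marker score as a covariate, 3 of these genes turned direction and were called, Nrp1 (0.42) and Nrp2 (0.51) higher and Plxnb1 (-0.24) lower, and Plxnd1 was called higher (0.47).

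Among the ephrins, 2 of 8 were called higher and 0 lower, where 1.95% and 1.85% of all genes were. Efna1 encodes ephrin-A1, the ligand of EphA2. It had 2011 to 4591 normalized counts in WT mice (median 3187) and 2693 to 5249 in OE/OE mice (median 4765), and the groups overlapped. Efna1 was higher in 6 of 7 pairs, by 0.29 on the log2 scale (SE 0.10, limma p = 0.0213, adjusted p = 1.00), although the exact sign-flip test gave p = 0.0781. The limma call was lost without pair 1 (0.25), 3 (0.27), 5 (0.24) or 6 (0.24). Efnb1, which encodes ephrin-B1, had 1725 to 2388 in WT mice (median 2181) and 2080 to 3852 in OE/OE mice (median 2222). Its medians were close, and its highest value was that of the OE/OE mouse of pair 4. Efnb1 differed by 0.26 (SE 0.11, limma p = 0.0466, adjusted p = 1.00, exact sign-flip p = 0.0625, higher in 5 of 7 pairs), and by 0.16 without pair 4 (SE 0.08, limma p = 0.0950, exact p = 0.125). The call was also lost without pair 3 (0.24), 5 (0.26), 6 (0.25) or 8 (0.25), and with adipocyte marker score as a covariate the direction turned (-0.0094). Efnb2, an arterial ligand of EphB4 in vessels, differed by 0.20 (SE 0.11, limma p = 0.115, exact sign-flip p = 0.172), and by 0.27 without pair 4 (SE 0.10, limma p = 0.0269, exact p = 0.0312).

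None of the 11 Eph receptors passed the threshold in the main limma fit, over 7 pairs without a covariate. In that fit 3.81% of all genes passed in either direction, so this is no result about the class. Epha2 had 13009 to 20043 normalized counts in WT mice (median 17305) and 11309 to 25836 in OE/OE mice (median 20608), the lowest being that of pair 4. It differed by 0.16 (SE 0.16, limma p = 0.343, exact sign-flip p = 0.406), and by 0.32 without pair 4 (SE 0.11, limma p = 0.0162, exact p = 0.125). Efna1 and its receptor were thus both called higher by limma in the other 6 pairs, though not by the exact test (p = 0.0938 for Efna1). Ephb3, named after its values were seen because it lay just outside the threshold, differed by 0.24 (SE 0.11, limma p = 0.0504, exact sign-flip p = 0.0938). It was called higher by edgeR and DESeq2 (0.24 by both) and by limma without pair 4 (0.32) or pair 7 (0.30), at unadjusted p. Limma also called Ephb3 with a pseudocount of 10 (0.24) and with the endothelial score as a covariate (0.27). With adipocyte marker score as a covariate, both Ephb3 (0.34) and Epha2 (0.46) were called higher. Ephb4, the venous partner of ephrin-B2, was among the steadiest members, with means of 2146 ± 159 and 2147 ± 158 and a 95% interval of -0.17 to 0.17. Epha5 had 8.63 normalized counts in the OE/OE mouse of pair 4 and 33.4 to 46.6 in the other OE/OE mice, and its log2 fold change was 0.03 (SE 0.28) with that pair and 0.32 (SE 0.17) without it.

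Slits and robos, and netrins with their receptors, gave 0 calls among 12 members in the limma fit over 7 pairs without a covariate. That fit called 3.81% of all genes in either direction, so this is no result about these classes. Slit2 and Slit3, secreted ligands, differed by -0.06 (95% interval -0.36 to 0.23) and -0.13 (-0.56 to 0.29, 0.02 without pair 4), and the receptor Robo1 by 0.14 (-0.11 to 0.40). Robo2 had 57.4 to 252 normalized counts in WT mice (median 163) and 79.4 to 442 in OE/OE mice (median 164). Its medians were close, and its log2 ratios ran from -1.15 in pair 1 to 2.92 in pair 4. The Robo2 log2 fold change was 0.38 (SE 0.43) over 7 pairs and -0.04 (SE 0.28) without pair 4. Ntn1 differed by -0.07 (-0.34 to 0.21), and by 0.06 without pair 4. The exact sign-flip p was 0.859 for Ntn1 and 0.938 for Neo1, which encodes the receptor neogenin. Neo1 differed by 0.08 (-0.15 to 0.31), and its ratios lay between -0.08 and 0.01 in all pairs but pair 5, where it was 0.74. Unc5c differed by 0.08 (-0.46 to 0.63), with means of 43.4 ± 24.0 and 47.3 ± 23.8 normalized counts. With adipocyte marker score as a covariate, Robo2 was called lower (-0.73). In that fit Robo4 (0.53) and Ntn4 (0.39), named after their values were seen, were called higher. The same fit called 8.86% of all genes higher and 6.89% lower.

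**Figure D4:**
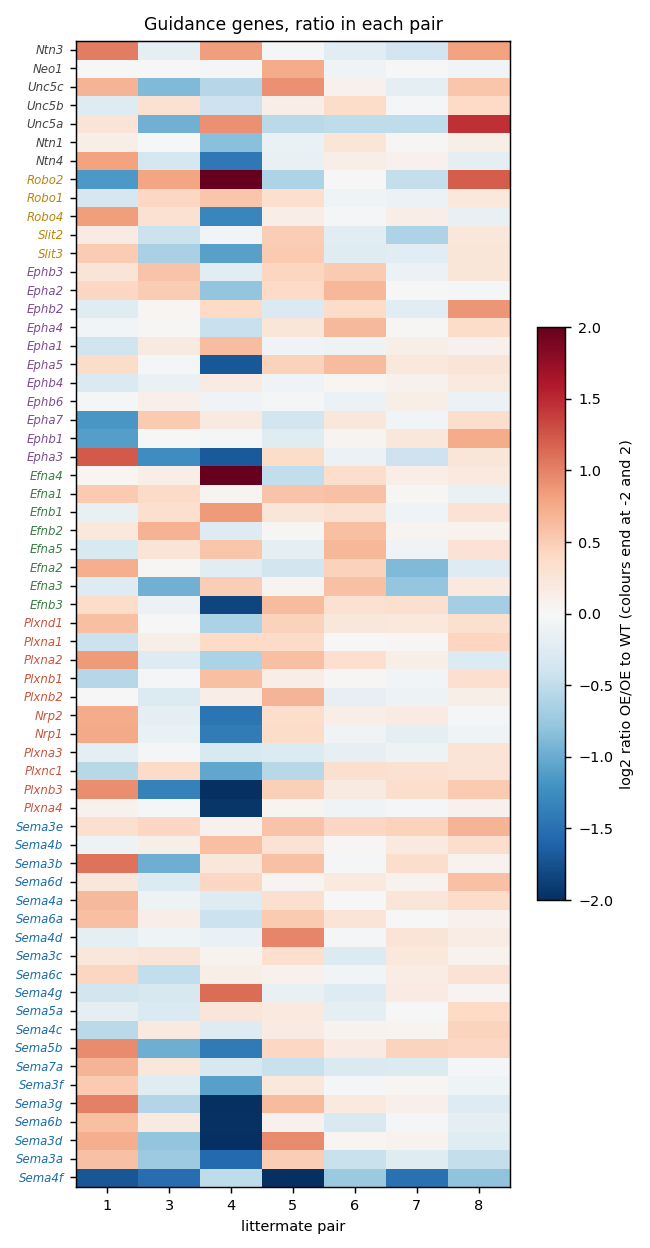
Log2 ratio of OE/OE to WT for each of the 62 guidance genes (rows, coloured by class) in each of the 7 littermate pairs (columns), with colours ending at -2 and 2. The Sema4f row is blue in every column and the Sema3e row red in every column, and pair 4 holds the darkest column, from -2.67 (Sema3d) to 2.92 (Robo2).

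Pair 4 spread the members more than the other pairs did. The SD of the log2 ratios over the 61 members other than Sema4f was 1.05 in pair 4 and 0.27 to 0.56 in the other pairs. In 32 of the 61 the ratio of pair 4 was the one farthest from the median of the 7. Neither value was computed over all genes, so they are not read as a trait of these families. Of all genes, 25.3% were lowest and 27.0% highest in the OE/OE library of pair 4. Named after their values were seen, the members lowest in pair 4 were Sema3d (-2.67), Sema3g (-2.53), Plxnb3 (-2.09) and Sema6b (-1.98), and Robo4, a robo of endothelial cells, lay at -1.30. Without pair 4, 8 members other than Sema4f were called higher by limma, among them Sema3e, Efna1, Epha2, Efnb2 and Plxnd1, where 4.49% of all genes were called higher. The part of the vessel and fat markers in these ratios was not tested pair by pair. With the adipocyte score as a covariate over all pairs, 15 of the 61 members other than Sema4f were called higher and 2 lower, while 8.86% and 6.89% of all genes were. With the endothelial score, 8 were called higher, where 3.75% of all genes were. With the pan-epithelial score, Sema3e alone was called higher, where 0.633% of all genes were.

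Marker lists gave the cell types in the libraries. Pan-epithelial markers were abundant, with a median of 7805 normalized counts per kb over the list, against 1432 for fibroblast and 973 for endothelial markers, and no marker in the table was at 0 in any library. The pan-epithelial score was 13.97 ± 0.21 in WT and 14.12 ± 0.25 in OE/OE mice (higher in 6 of 7 pairs, exact sign-flip p = 0.0469, 0.344 adjusted over 11 lists), and the summed counts of its 10 genes ran from 292232 to 494039 and from 308766 to 586806. The fibroblast score was 12.42 ± 0.36 and 11.95 ± 0.56 (lower in 5 of 7 pairs, exact p = 0.0938, adjusted p = 0.344), with sums of its 11 genes from 94977 to 193449 and from 61101 to 143706. The adipocyte score was 8.13 ± 0.62 and 7.39 ± 0.78 (lower in 6 of 7 pairs, exact p = 0.0625, adjusted p = 0.344), with sums of its 10 genes from 25546 to 57286 and from 13649 to 51936. Gene by gene, limma called 5 of the 10 adipocyte markers and 4 of the 11 fibroblast markers lower at an unadjusted p of 0.05 or less. It called 0 of either list higher, and 1.85% of all genes lower. Of the pan-epithelial markers, 1 was called higher and 0 lower. The Sema4f log2 fold change was -1.21, -1.35, -1.65 and -1.34 with the pan-epithelial, fibroblast, adipocyte and endothelial scores as covariates. Scores of the endothelial, macrophage, lymphocyte, pericyte, Schwann cell, basal and 2 luminal lists had exact p-values from 0.297 to 0.859, and 9 of 12 lymphocyte markers were in the table.

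Litter took a larger share of the spread than genotype. Litter was taken as the pair, so anything else the mice of a pair shared is in its share and cannot be told apart. Over the 62 genes, litter accounted for a median of 67.2% of the spread between the 14 mice and genotype for 1.76%, where the medians over all genes were 73.9% and 1.43%. With neither effect, litter would take 46.2% and genotype 7.69% on average, from their degrees of freedom. The share of litter ran from 18.9% to 94.3% over the members, was below 46.2% in 8 of them, and was 91.9% for Slit2. After Sema4f, genotype took the greatest share in Sema3e (33.3%).

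Sema4f and 5 other members lie on chromosome 6, which carries ROSA26. Sema4f is 30.1 Mb from Gt(ROSA)26Sor on the side of lower coordinates. Plxnd1 is 2.88 Mb away on the other side, and Plxna1, a class A plexin, is 23.7 Mb away on the same side as Sema4f. Plxnd1 and Plxna1 differed by 0.17 and 0.13 (SE 0.13 and 0.11) on the log2 scale. Epha1, Ephb6, an Eph receptor without kinase activity, and Plxna4 lie farther off, and differed by 0.06, -0.03 and -0.26. Genes called in either direction made up 14.1% of the 78 genes within 5 Mb of ROSA26, 6.28% of the 494 within 40 Mb, 5.26% of the 837 on the chromosome and 3.81% of all genes. Around Sema4f itself, the 35 other genes within 1 Mb had log2 fold changes from -0.29 to 0.54, and 1 was called, Nagk, a sugar kinase gene (-0.22, SE 0.09, limma p = 0.0395, exact sign-flip p = 0.0312). Every OE/OE mouse carried both the transgene and the chromosome 6 sequence next to it, so their effects cannot be told apart in this design.

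**Figure D5:**
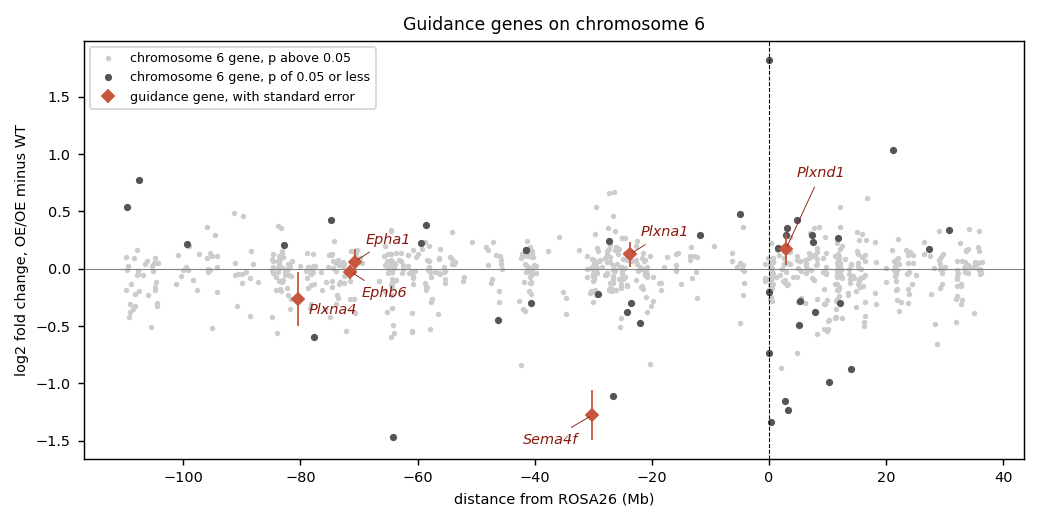
Log2 fold change, OE/OE minus WT, of 837 chromosome 6 genes by distance from ROSA26 in Mb, with the 6 guidance genes as diamonds with standard errors. Sema4f lies at -30.1 Mb and -1.28, below its neighbours, while the other 5 lie between -0.26 and 0.17.

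Genes known to work with these receptors and ligands, such as adaptors and kinases, gave few calls. None of 31 genes of semaphorin and plexin signaling and none of 18 of slit and robo signaling passed the threshold. Of 29 genes of ephrin and Eph signaling, 1 was higher, the kinase gene Abl2 (6094 ± 2072 and 7696 ± 3453 normalized counts, 0.29, SE 0.10, limma p = 0.0152, exact sign-flip p = 0.0156, higher in 7 of 7 pairs). Of 26 genes of netrin signaling, Lrrc4c, which encodes a membrane ligand of netrin G1, was higher (26.1 ± 9.91 and 43.6 ± 12, 0.75, SE 0.17, limma p = 0.00162, exact p = 0.0156, 7 of 7 pairs). Dscam, a netrin receptor of the immunoglobulin family, was lower (1960 ± 1211 and 1251 ± 1239, -1.45, SE 0.53, limma p = 0.0209, exact p = 0.0156, 7 of 7 pairs). The adjusted p of each was 1.00, and their share of calls, 1 of 29 and 2 of 26, stood beside 1.95% and 1.85% of all genes.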

How the data were processed

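Mammary epithelial cells of 7 WT and 7 OE/OE mice were sequenced, 1 library per mouse. Per the submitters' processing notes and the methods, the authors aligned the reads with TopHat2 2.0.10 (genome mm10) and counted fragments per gene with HTSeq 0.6.0. They dropped genes that did not reach 10 fragments in 7 or more libraries and scaled the rest by size factors from DESeq 1.18.0. The deposited values are a signal, namely normalized counts on a linear scale. All values were whole multiples of 1 fragment in each library (tolerance 0.01), which gave depths of 20125106 to 41835978 (median 37838930). Positions and exon lengths came from GENCODE M21 (GRCm38), which matched all 16124 identifiers.

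The main test was limma 3.58.1 (R 4.3.3, trend) on log2(normalized count + 1). Littermate pair entered as a block. The threshold was an unadjusted p of 0.05, as in the methods, with Benjamini-Hochberg adjustment over all genes beside it. Fold changes on this scale understate those of low genes. Single genes and marker scores (mean log2 level of a list) were tested by exact two-sided sign flips of 7 pairs (128 patterns, smallest p 0.0156). Shares of spread are sums of squares of litter and genotype on the log2 scale. The methods give 7 littermate pairs, and the pair numbers come from the sample titles. The correlation of deviations from the group means was 0.171 to 0.748 (median 0.522) for same-numbered mice and had a median of -0.151 for other combinations. Centring on group means pushes the other combinations below 0 when same-numbered mice correlate, so -0.151 is not an independent baseline.

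Members and lists were chosen with earlier results of these data known. Named members were Sema4f, those past the threshold or changed alike in all 7 pairs, those on chromosome 6, the highest and lowest per length in each class, and those with a known part in the mammary duct or its vessels. Other members are said to be named after their values were seen, or are given by counts. Alternatives covered the pseudocount, a minimum mean of 50, the block, the trend, edgeR 4.0.16, DESeq2 1.42.0, a paired test on untransformed values, other scalings, covariates from marker scores, and the omission of each pair.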

Additional observations from a re-analysis of the deposited data

Results flagged for a closer look

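Of 80 groups of 7 mice examined (29 named members and 11 marker scores in each genotype), 10 held a mouse whose gap to its nearest neighbour, as a share of the range on the log2 scale, was above the 95% critical value of Dixon's test. Chance alone gives about 4. In 8 of the 10 the mouse was the OE/OE mouse of pair 4, the lowest of its group.

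The share was 0.732 for Plxna4, 0.721 for Nrp2, 0.655 for Plxnd1 and 0.647 for Nrp1, the plexins and neuropilins. It was 0.797 for Epha5 and 0.653 for Ntn1. For marker scores in this mouse it was 0.662 for pericytes and 0.581 for endothelial cells. The part of those cell types in the 6 genes was not tested.

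In WT mice, Plxnc1 was highest in pair 5 (183 normalized counts against 76.0 to 93.7 in the others), with a share of 0.763. The lymphocyte score was highest in the WT mouse of pair 1, with a share of 0.647.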

How the results depend on the processing

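Sema4f stayed between -1.65 and -1.13 on the log2 scale in the 22 alternatives. Sema3e was called higher in all 22, while Efna1 was called in 15, Sema4b in 11 and Efnb1 in 9. Counts of members called higher, 4 in the report, were 1 with no replicate block (Sema3e), 2 without the trend, 2 in the paired test on untransformed values, 1 with the pan-epithelial score, 8 with the endothelial score and 15 with the adipocyte score as a covariate. Leaving out 1 pair gave 1 (without pair 5) to 8 (without pair 4). Of all genes, 1.95% were called higher in the main fit and 4.49% without pair 4. With the pan-epithelial, endothelial and adipocyte scores the shares were 0.633%, 3.75% and 8.86%. For the other fits the share of all genes was not computed, so changes in these counts are not read as a result about the members. Counts of members lower, Sema4f included, were 1 in the main fit and 3 with the adipocyte score. They were 1 to 2 with a pair left out. Sema4f was picked for its change in this contrast and was not tested, so its place in these counts is no test result. Without Sema4f, the counts were 0 in the main fit, as in the report, and 2 with the adipocyte score (Robo2 and Plxnb1). They were 0 to 1 with a pair left out (Plxna3 without pair 8, named after its values were seen). With the adipocyte score, 5 named members changed direction: Efnb1 (-0.0094), Robo2 (-0.73), Plxnb1 (-0.24), Nrp1 (0.42) and Nrp2 (0.51). The cause was not tested. Of the 24 named members past no threshold, 20 changed sign in at least 1 alternative. Pairing came from the labels, and the block changed the calls of Efna1, Sema4b and Efnb1.

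Low counts limit Sema4f (24 to 396 fragments) and Sema3e (31 to 130). None of the 61 members tested had an adjusted p under 0.05 in limma, edgeR or DESeq2, so the unadjusted calls among 61 genes carry no control of false calls. The cell fraction was not sorted, and of the fits that left out 1 pair, Plxnd1, Epha2 and Efnb2 passed in the one without pair 4, and Plxna1 in the one without pair 1 (0.22). The 7 pairs are separate mice, but the paper does not say whether they descend from 1 targeted embryonic stem cell clone or several.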
